A study of Caenorhabditis elegans with 4 samples.

Results

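The sites described here are peaks of the first ChIP replicate that were found again in the second replicate but were left outside the combined list of the study. They were chosen by overlap between the 3 deposited peak lists: a peak of replicate 1 on a nuclear chromosome was taken when it shared at least 1 bp with a peak of replicate 2 and no bp with a combined peak. The rule gave 9483 reproduced outside sites, which is 31.9% (exact 95% interval 31.4 to 32.5%) of the 29701 nuclear peaks of replicate 1. Of the other nuclear peaks, 7943 shared a bp with a combined peak and are called combined-list peaks here, and 12275 met neither a replicate 2 peak nor a combined peak and are called replicate 1 only peaks.

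The lists come from chromatin immunoprecipitation and sequencing (ChIP-seq), which collects the DNA fragments that a protein is crosslinked to, in L2 larvae of the nematode Caenorhabditis elegans. All samples were whole hermaphrodites of strain OP324, which carries the unc119(ed3) allele and the transgene wgIs324, a C34F6.9 gene tagged with TY1, EGFP and FLAG together with unc119, grown at 20 degrees Celsius and crosslinked with 2% formaldehyde. The strain was made by biolistic transformation with a recombineered plasmid, it was not outcrossed, and its listed genotype names no lesion in the endogenous C34F6.9 gene. The 4 samples are 2 ChIP samples, precipitated with antibodies to GFP, and 2 input samples of total genomic DNA, of which the inputs are not analysed here. Whether the replicates came from separate cultures is not stated, and read depth is unknown.

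A peak caller scans the genome for places where ChIP reads pile up. The irreproducible discovery rate (IDR) then compares the ranks of peaks between replicates to judge which peaks are reproducible. In whole larvae, the number of cells in which a site is bound and the strength of binding in each cell cannot be told apart. In C. elegans the centres of the autosomes are rich in genes, while the arms hold more repeats and recombine more often. The X chromosome has its genes spread more evenly and is dosage-compensated in hermaphrodites. Positions are in WormBase build WS220. No genome sequence or gene annotation of that build was used here, so sites are given by position, without sequence and without a gene.

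The reproduced outside sites were taken mainly from the middle of the replicate 1 ranking. Their rank ran from 530 to 29721 with a median of 15080, against a median of 4069 for combined-list peaks and 20552 for replicate 1 only peaks. The median authors' score, whose scale is not stated, was 0.277 for the outside sites, 3.44 for combined-list peaks and 0.115 for replicate 1 only peaks. The best-ranked replicate 2 partner of an outside site had a median rank of 12640 and that of a combined-list peak 3364. These ranks and scores bear on how the authors made the combined list, so they are a description of what was chosen. "Weaker" holds for the sites on the whole and not for each one, since 15 of them carried the highest score of replicate 1, 3.80, which 3191 peaks share.

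Few outside sites stood among the first 6000 ranks. They made up 4 of the 1998 nuclear peaks in ranks 1 to 2000, 58 in ranks 2001 to 4000 and 215 (10.8%) in ranks 4001 to 6000. In ranks 6001 to 8000 they were already 903 peaks (45.2%), and they were most frequent in ranks 8001 to 10000, with 1102 peaks (55.1%). After that their share fell in every block, to 468 peaks (27.1%) in ranks 28001 to 29725. Combined-list peaks were 99.7% of the first block, 18.1% of ranks 8001 to 10000 and 3.07% of the last block, so that in the last block the shares of outside sites and of combined-list peaks were both lower than in ranks 8001 to 10000. Replicate 1 only peaks made up 69.8% of the last block. The 3191 replicate 1 peaks tied at the highest score fill the first block and part of the second. Their order rests on the peak number.

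**Figure D1:**
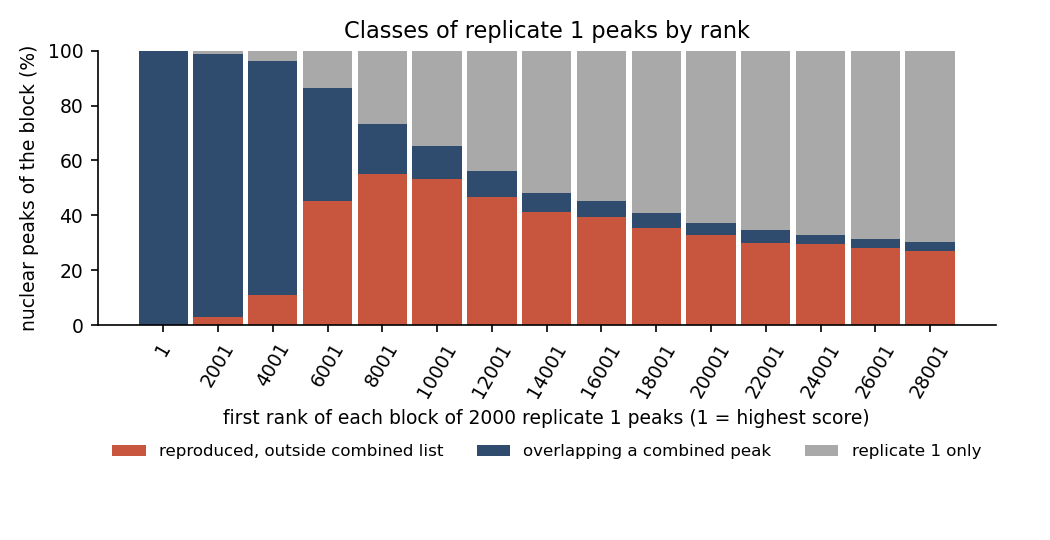
Classes of the nuclear replicate 1 peaks in blocks of 2000 ranks; the y axis gives the percentage of each block, and the last block holds ranks 28001 to 29725. The reproduced outside sites reach 55.1% in ranks 8001 to 10000 and are 27.1% of the last block.

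Among peaks outside the combined list, the part found again in replicate 2 also depended on rank. It was 76.98% in ranks 6001 to 8000, 51.5% in ranks 12001 to 14000 and 27.99% in the last block. An overlap of 1 bp can also arise by position alone. How often was not estimated, so these shares are not rates of repeated binding. Of the 7943 combined-list peaks, 6167 were the best-ranked replicate 1 peak at a combined peak, with a median rank of 3151. The other 1776 shared their combined peak with a better-ranked one and had a median rank of 11859. These made up nearly all of the 639 combined-list peaks that ranked below the median outside site, since only 14 of the 639 were the best-ranked peak at their combined peak.

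A small number of outside sites ranked high in both replicates. The combined list holds 6494 peaks. Using the same number of ranks in each replicate, 50 outside sites stood within it in both lists, 1052 in 1 list, and 8381 (88.4%) in neither. Over the 9483 sites, the Spearman correlation between the rank in replicate 1 and the rank of the best partner was 0.21, and over the 7925 combined-list peaks with a partner it was 0.40. Both run across peaks of the same 2 samples, and ties in score are ordered by the peak number. Each class was unevenly spread over the ranks. The replicate 1 quartiles were 10144 and 21538.5 for outside sites, and 1994.5 and 6657 for combined-list peaks.

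The 10 sites with the best rank, counting the worse of both replicates, lay on 6 chromosomes and were all at least 2.261 kb from the nearest combined peak. The first was on chromosome III at 5108846 to 5109048, with rank 530 in replicate 1 and 636 in replicate 2, and the nearest combined peak was 5.896 kb away. It was 203 bp wide, one of only 2 outside sites that did not have the usual width of 450 bp. Next came a site on chromosome I at 7968744 to 7969193 with ranks 1063 and 1515. The third was on chromosome IV at 17293632 to 17294081 with ranks 1369 and 1565. A site on X at 3245764 to 3246213 had ranks 1566 and 1501 and was the most isolated of the 10, with a gap of 34.639 kb to the combined list. These 4 were the only outside sites with the highest score of both lists, so their order rests on the peak number.

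Chromosome X held another of the 10, at 14610345 to 14610794, with ranks 3070 and 2925. Chromosome I held 2 more, at 7926238 to 7926687 with ranks 2655 and 3149 and at 14867554 to 14868003 with ranks 2619 and 3365. Chromosome II held 2, at 7131861 to 7132310 with ranks 2918 and 3355 and at 10350367 to 10350816 with ranks 2880 and 3367. The last was on chromosome V at 11239150 to 11239599, with ranks 2089 and 3371. The replicate 2 ranks of these last 6 depend on ordering by score, since the numbers in the names of their partner peaks ran from 3992 to 5060. All 10 sites had the highest replicate 1 score, so their replicate 1 ranks rest on the peak number.

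The midpoints of both replicates lay farther apart at outside sites than at combined-list peaks. The midpoint of the closest replicate 2 partner lay a median of 100 bp away (quartiles 38 and 217 bp), against 32 bp (11.5 and 78 bp) for combined-list peaks. Offsets of overlapping peaks are limited by their widths, and the rule itself required an overlap of outside sites. A width of 450 bp was found for 99.98% of outside sites but only 82.1% of combined-list peaks. Within 50 bp of each other were 2936 of 9483 pairs (31.0%) of outside sites and 5013 of 7925 pairs (63.3%) of combined-list peaks. Within 200 bp the shares were 72.3% and 93.1%. Partners lay to the right of the outside site in 4654 cases and to the left in 4750.

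**Figure D2:**
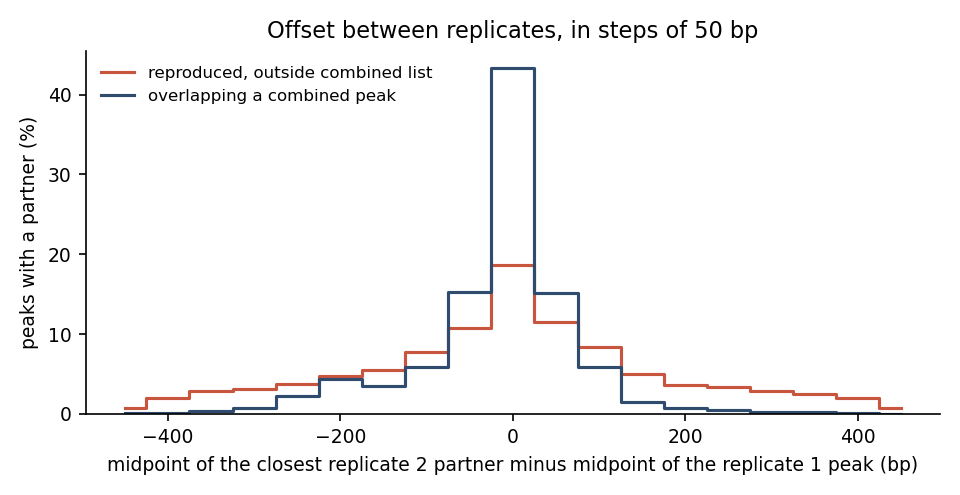
Signed distance in bp from the midpoint of a replicate 1 peak to that of its closest replicate 2 partner, as the percentage of peaks with a partner in steps of 50 bp. The step around 0 holds 18.7% of outside sites and 43.3% of combined-list peaks, and the outside sites have the wider flanks on both sides.

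The offset also grew with worsening rank among the outside sites themselves. Divided into 4 equal groups by the worse of their ranks in both replicates, the sites had a median offset of 76 bp in the best group, 95 bp in the next, 118.5 bp in the third and 127 bp in the last. Within the same ranks the contrast with combined-list peaks was not of one kind. In ranks 6001 to 8000 the median offset was 75 bp for outside sites and 42 bp for combined-list peaks, but in ranks 20001 to 22000 it was 121 bp and 155 bp. That later block held 655 outside sites and only 85 combined-list peaks. Of the 639 combined-list peaks below the median outside site, only 14 were the best-ranked peak at their combined peak.

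The thresholds of the rule were met closely by few sites. With the closest partner, 34 outside sites shared 10 bp or less, and the smallest overlap was 1 bp, on chromosome V at 12306707 to 12307156. On the other side of that threshold, 36 replicate 1 only peaks lay within 10 bp of a replicate 2 peak and 617 within 100 bp. Only 2 outside sites lay within 10 bp of a combined peak, on chromosome III at 5634082 to 5634531 with a gap of 4 bp and on X at 8012975 to 8013424 with a gap of 6 bp. Next nearest was a site on chromosome I at 9248672 to 9249121, 27 bp away. On the combined side, 4 combined-list peaks overlapped a combined peak by 10 bp or less. For 76 outside sites (0.801%) a replicate 2 partner did touch a combined peak, and for 55 every partner did.

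Chromosome X carried more of the reproduced outside sites, relative to its length, than any autosome. It held 2184 of the 9483 sites, or 23.0% (exact 95% interval 22.2 to 23.9%), for 17.7% of the nuclear length. That is 123 sites per Mb (exact Poisson 95% interval 118 to 129), against 88.5 on the autosomes. The share was larger than the 18.6% (17.7 to 19.5%) of combined-list peaks, with an odds ratio of 1.31 (95% interval 1.22 to 1.41; Fisher's exact test, two-sided, p = 7.3e-13, adjusted p = 1.2e-12 over 5 tests). It was also larger than the 20.6% (19.9 to 21.4%) of replicate 1 only peaks, with an odds ratio of 1.15 (1.08 to 1.23; Fisher's exact test, two-sided, p = 2.2e-05, adjusted p = 2.2e-05). The tests treat peaks as independent, which neighbouring peaks are not, and cover counting error only. The contrast with replicate 1 only peaks also carries where replicate 2 peaks lie, since overlap with them divides these classes.

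Rank moved with the contrast to combined-list peaks. Compared within blocks of 2000 ranks of replicate 1, the odds ratio was 1.06 (Mantel-Haenszel estimate, interval 0.957 to 1.18, which includes 1), a comparison added after the data were seen. In ranks 6001 to 8000, X held 22.5% of outside sites and 21.99% of combined-list peaks. In ranks 8001 to 10000 it held 24.95% and 27.6%. The share of X among outside sites lay between 24.8% (23.1 to 26.6%) in the best of the 4 rank groups and 21.8% (20.2 to 23.5%) in the last. Among combined-list peaks it was 13.0% in ranks 1 to 2000 and 18.5% in ranks 2001 to 4000. The 3191 replicate 1 peaks tied at the highest score reach into both blocks and are ordered by the peak number.

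The excess over replicate 1 only peaks did not pass the threshold under every setting. Within rank blocks the odds ratio was 1.12 (Mantel-Haenszel estimate, interval 1.05 to 1.20). With the roles of the lists exchanged, 8966 replicate 2 peaks were reproduced and outside, of which 23.1% lay on X, against 21.7% of replicate 2 only peaks (odds ratio 1.08, Fisher's exact test, adjusted p = 0.054). In the upper 50% of the replicate 1 list the values were 23.6% and 22.2% (odds ratio 1.08, Fisher's exact test, adjusted p = 0.16). Counting a peak as reproduced when midpoints were within 200 bp gave 22.4% and 21.3% (odds ratio 1.07, Fisher's exact test, adjusted p = 0.071).

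Replicate 1 only peaks also had their highest density on X, 142.9 per Mb (137.4 to 148.6), next to 142.3 (136.1 to 148.8) on chromosome III, and these intervals overlap. The 5 autosomes differed among themselves. Chromosome III had 107 outside sites per Mb (exact Poisson 95% interval 102 to 113) and was the next densest after X. Chromosomes I and II had 94.1 (89.3 to 99.2) and 91.3 (86.5 to 96.2), and their intervals overlap. Chromosomes IV and V were the sparsest, with 79.2 (75.1 to 83.5) and 77.5 (73.8 to 81.4), and their intervals overlap too. Set against the combined list, another order appeared: there were 1.48 outside sites for each combined-list peak on X and 1.45 on V, against 1.11 on II, 1.10 on IV, 1.09 on III and 0.957 on I. Chromosome I was the only one with fewer outside sites than combined-list peaks, 1417 and 1480. Of the peaks outside the combined list, the smallest share overlapped a replicate 2 peak on chromosome IV, 39.3% (37.7 to 40.9%). The largest was on X, 46.3% (44.9 to 47.7%). The intervals of V, 44.6% (43.0 to 46.3%), and II, 44.2% (42.5 to 46.0%), overlap that of X. Overlap by position alone was not estimated for any chromosome.

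**Figure D3:**
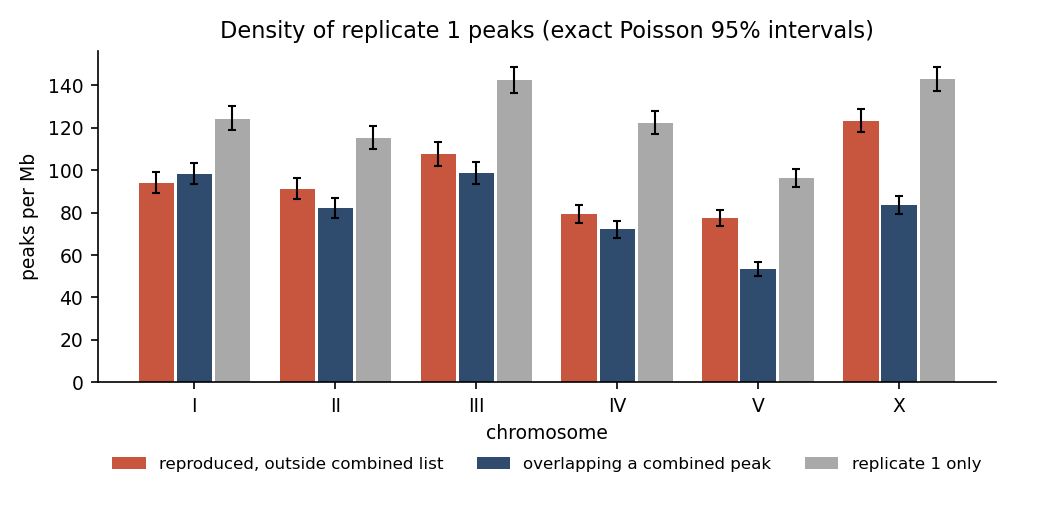
Peaks of replicate 1 per Mb on each nuclear chromosome for the 3 classes, with exact Poisson 95% intervals as error bars. Outside sites are densest on X, at 123 per Mb, where combined-list peaks have 83.4 per Mb and replicate 1 only peaks 142.9 per Mb.

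Along the autosomes the outside sites were concentrated in the central part, as a group less so than combined-list peaks. The middle 33.3% of the autosomal length held 3041 of their 7299 autosomal sites (41.7%, exact 95% interval 40.5 to 42.8%), or 111 per Mb against 77.4 in the outer parts. For combined-list peaks the share was 45.5% (44.3 to 46.8%), and for replicate 1 only peaks it was 29.3% (28.4 to 30.2%), below the share of the length. The odds ratio to combined-list peaks was 0.854 (0.798 to 0.915; Fisher's exact test, two-sided, p = 5.0e-06, adjusted p = 6.3e-06). To replicate 1 only peaks it was 1.72 (1.62 to 1.84; Fisher's exact test, two-sided, p = 6.2e-63, adjusted p = 3.1e-62). Overlap with replicate 2 peaks divides these classes, so this contrast also carries where replicate 2 peaks lie. In replicate 2 the central share was 42.2% for reproduced outside peaks, 45.7% for peaks at a combined peak and 41.4% for the rest.

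Both contrasts depended on the lists. When a site had to meet the upper 50% of the replicate 2 list, 46.8% of the 3170 autosomal outside sites were central, and the direction against combined-list peaks turned (odds ratio 1.05, Fisher's exact test, adjusted p = 0.27). In the upper 50% of replicate 1 the difference to combined-list peaks was not significant (43.5% and 45.5%, odds ratio 0.925, Fisher's exact test, adjusted p = 0.088). With the lists exchanged, 42.2% of outside sites and 41.4% of replicate 2 only peaks were central (odds ratio 1.03, Fisher's exact test, adjusted p = 0.37). The low central share was therefore seen in the peaks of replicate 1 that were not found again, and not in those of replicate 2. Among outside sites the central share was 45.8% (43.5 to 48.1%) in the best of the 4 rank groups, 44.1% in the next, 39.2% in the third and 37.8% (35.6 to 40.1%) in the last.

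The single chromosomes did not all follow the pooled values. On 4 of the 5 autosomes the central share of outside sites was below that of combined-list peaks, with chromosome V as the exception at 48.8% (46.4 to 51.3%) and 47.3% (44.3 to 50.3%). The widest gap was on chromosome IV, where 36.2% (33.7 to 38.8%) of outside sites and 44.4% (41.7 to 47.2%) of combined-list peaks were central. On all 5 autosomes the central share was above that of replicate 1 only peaks. The arms were also unequal. Chromosome II had 47.9 outside sites per Mb in its left part and 109.6 in its right part, close to the 116 in its centre. Chromosome IV showed the other order, with 87.8 on the left, 86.1 in the centre and 63.6 on the right.

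Chromosome X had no such concentration. Its left, middle and right parts held 689, 750 and 745 outside sites, so that 34.3% (32.3 to 36.4%) were in the middle. Cut into 10 equal parts, X was sparsest in the first one at the left end, with 69.99 sites per Mb (exact Poisson 95% interval 58.2 to 83.4), against 112 or more in each of the others. Combined-list peaks had 58.1 per Mb there.

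**Figure D4:**
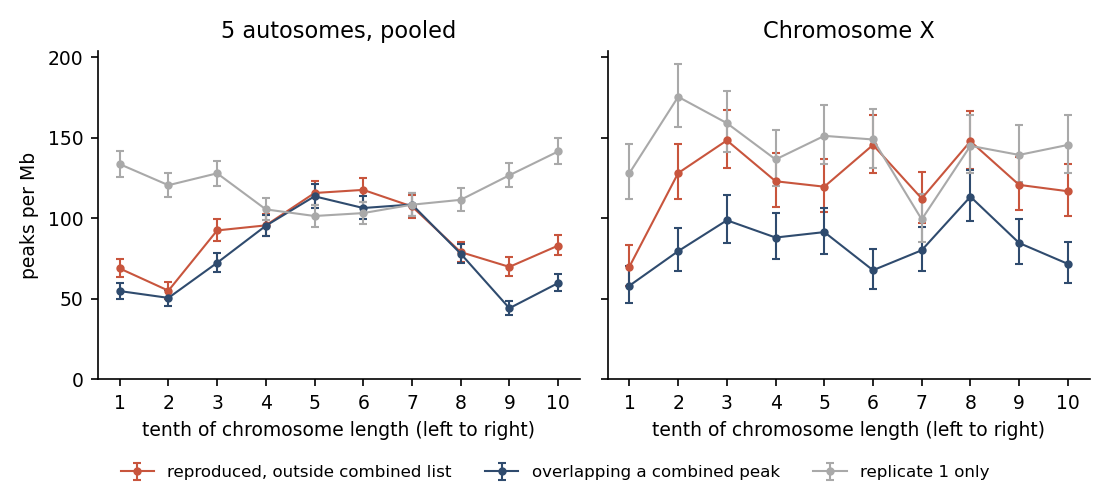
Peaks per Mb in each of 10 equal parts of chromosome length from left to right, pooled over the 5 autosomes and for X, with exact Poisson 95% intervals; lines join the parts of one class. On the autosomes outside sites reach 118 per Mb in part 6 and are lowest, at 55.02 per Mb, in part 2.

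Outside sites lay nearer to the combined list than the peaks seen in replicate 1 alone. Their median gap to the nearest combined peak was 3.54 kb (quartiles 1.22 and 9.1 kb), against 5.08 kb (1.85 and 12.02 kb) for replicate 1 only peaks. The median was smaller on each of the 6 nuclear chromosomes, for example 2.63 kb against 3.65 kb on chromosome I and 4.78 kb against 7.46 kb on V. Within 1 kb of a combined peak were 1965 outside sites (20.7%, exact 95% interval 19.9 to 21.6%) and 1775 replicate 1 only peaks (14.5%, 13.8 to 15.1%), an odds ratio of 1.55 (1.44 to 1.66; Fisher's exact test, two-sided, p = 1.4e-33, adjusted p = 3.5e-33). With the lists exchanged the shares were 20.3% and 14.8%. Outside sites must overlap a peak of the other replicate, so this contrast also carries how those peaks lie around combined peaks, which was not separated.

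**Figure D5:**
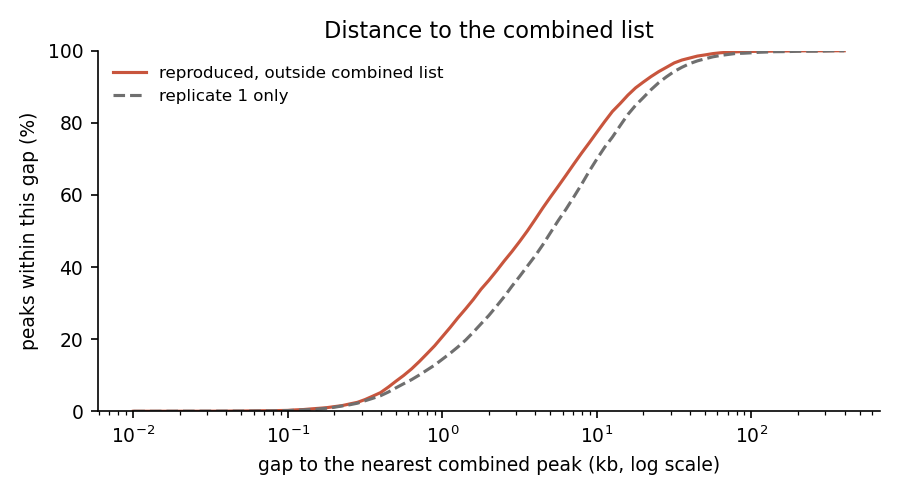
Cumulative percentage of peaks by their gap to the nearest combined peak in kb, on a log scale, for outside sites and replicate 1 only peaks. The curve of outside sites is the higher one at 1 kb and at 5 kb: 20.7% and 14.5% lie within 1 kb, and 59.4% and 49.5% within 5 kb.

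A larger share of the better-ranked outside sites lay close. Within 1 kb of a combined peak were 25.1% (23.4 to 26.9%) of the best of the 4 rank groups, 21.2% of the next, 19.2% of the third and 17.3% (15.8 to 18.9%) of the last. Most sites lay farther off, however: 6033 (63.6%) were more than 2 kb from the nearest combined peak and 2140 (22.6%) more than 10 kb. The farthest was on chromosome V at 17315470 to 17315919, 349.5 kb from the nearest combined peak, with rank 8538 in replicate 1 and 17806 in replicate 2. Next came sites on V at 17649651 to 17650100, at 207.8 kb, and on X at 116998 to 117447, at 206.6 kb.

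Outside sites often stood beside each other, as did the other peaks of the list. Of the 9483, 5269 (55.6%) had another outside site within 1 kb, and 3364 (35.5%) overlapped one. Combined-list peaks had another of their class within 1 kb in 57.2% of cases and overlapped one in 44.3%. For replicate 1 only peaks the values were 42.7% and 21.5%. The outside sites thus lay between both classes, in a comparison added after the data were seen and not tested. The way the classes were made bears on this order. Of the combined-list peaks, 1776 shared their combined peak with a better-ranked one, and 3359 outside sites shared their best-ranked replicate 2 partner. Merging overlapping sites left 7733 regions, of which 6119 held 1 site, 1491 held 2, 113 held 3 and 10 held 4 or more. The largest, on X at 5516232 to 5518293, joined 6 sites over 2062 bp and lay 268 bp from a combined peak. The longest unbroken succession of outside sites, with no replicate 1 peak of another class between them, was on chromosome V at 11858126 to 11874484. There 15 sites lay within 16.4 kb, with ranks from 6553 to 24938 in replicate 1 and best partners from rank 3282 to 19476 in replicate 2. On chromosome II, 12 followed each other at 12663463 to 12672728. No combined peak overlapped either stretch.

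Windows of 100 kb held 9.45 outside sites on average, and the densest were X at 13100001 to 13200000 with 34 sites beside 16 combined-list peaks, and chromosome II at 7900001 to 8000000 with 33 beside 8. Chromosome I at 7000001 to 7100000 and X at 3800001 to 3900000 had 31 each, beside 26 and 7 combined-list peaks. Chromosome V at 10800001 to 10900000 had 30 beside 16. Over 999 such windows the Spearman correlation of the number of outside sites with that of combined-list peaks was 0.54, and with that of replicate 1 only peaks 0.37. It was 0.57 over 822 autosomal windows and 0.38 over the 177 of X. Windows differ in position along the chromosome, which these correlations do not take out.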

How the data were processed

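Peak lists of 2 ChIP replicates and 1 combined list were used. Per the file headers they are on WormBase build WS220, and the source column of each deposited peak names SPP and IDR. Not given in the sources used here are the aligner, the versions, the thresholds, the use of the input and the making of the combined list. The authors deposited 1 score per peak, of unstated scale, used here only to rank peaks within a list (ties by the number in the peak's name). Samples were grouped by title.

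Peaks were classified by shared bp. The rank of a site's partner is that of its best-ranked overlapping replicate 2 peak, while offset and overlap are those of the closest partner. Gaps are differences between end and start positions. For each chromosome the last peak end in any list stood in for its length (100.2 Mb in all). Shares have Clopper-Pearson intervals and densities exact Poisson intervals, at 95%. The 5 Fisher's exact tests were adjusted together by the Benjamini-Hochberg method at a threshold of 0.05, and the odds ratios are conditional estimates. All intervals cover counting error of peaks only, and read depth, hence precision per peak, is unknown. The steps were tested on simulated lists. The members, classes, tests and rule for the regions named (the 10 best-ranked, the nearest and farthest sites, those of smallest overlap, the densest windows and the longest stretches without a site) were chosen with earlier results of these data known. Regions named as the longest successions or largest merged regions were added after their values were seen. Computation used scipy 1.17.1, pandas 2.3.3 and numpy 2.4.6 under Python 3.11.15, with plots by matplotlib 3.10.9.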

Additional observations from a re-analysis of the deposited data

Results flagged for a closer look

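A signal outside the nuclear chromosomes met the same overlap criteria. Of the 24 mitochondrial peaks of replicate 1, 21 overlapped a peak among the 18 of replicate 2. The combined list has no peak on that genome. They are not among the 9483 sites, and no input list was at hand to set beside them. How many would overlap by position alone on the mitochondrial genome was not estimated, so the overlap is not evidence of binding there.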

How the results depend on the processing

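Of 50 comparisons of a test with an alternative, 43 kept direction and side of the threshold. The share within 1 kb of a combined peak did so in all 10, with odds ratios from 1.31 to 1.73. The excess on X over combined-list peaks fell to an odds ratio of 1.06 within blocks of replicate 1 ranks. The excess on X over replicate 1 only peaks missed the threshold with midpoints within 200 bp (1.07), in the upper 50% of replicate 1 (1.08) and with the lists exchanged (1.08). The central share against combined-list peaks missed it in the upper 50% of replicate 1 (0.925) and turned in the upper 50% of replicate 2 (1.05). Against replicate 1 only peaks it missed it with the lists exchanged (1.03). The cause of these changes was not tested. The upper 50% of a list held 4652 sites for replicate 1 and 4155 for replicate 2. Other settings gave between 6859 and 9407 sites. Chosen after the data had been seen were the rank blocks, the omission of sites whose partner touches a combined peak, and the counts of sites under each setting other than the exchanged lists. Neither replicate could be left out, since the rule needs both, and the exchanged lists stand in for this. No paired analysis was possible because inputs, the only samples numbered like the ChIP ones, are not analysed here.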

Other observations

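The 5 longest stretches without a combined peak held fewer outside sites, and fewer replicate 1 only peaks, than even spacing along their chromosome would place there. Even spacing takes no account of sparser parts of a chromosome, so part of the deficit can come from these. The stretches are also extremes of the combined list that the rule used. Over windows of 100 kb, outside sites and combined-list peaks rose together (Spearman correlation 0.54), so the deficit is description only. Chromosome V had 53.3 outside sites per Mb in its right part and 77.5 on the whole. On chromosome V between 16965961 and 17857874, 892 kb without a combined peak, there were 11 outside sites and 33 replicate 1 only peaks, against 69.2 and 85.8 by even spacing. Between 18087161 and 18490309 on V there were 6 and 30, against 31.3 and 38.8 by even spacing. Between 16023068 and 16351122 on V there were 6 and 10, against 25.4 and 31.6. At the left end of X, before position 324028, there were 6 and 18, against 39.9 and 46.3. Between 2281955 and 2600619 on V there was no outside site, beside 9 replicate 1 only peaks, against 24.7 and 30.7. Over the 56 windows of 100 kb with no combined-list peak, 33 held an outside site, with 117 outside sites and 306 replicate 1 only peaks in all. The median number of outside sites was 1 in these windows and 9 over all 999.

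The longest stretches of nuclear chromosome without an outside site were on V from 16911206 to 17315469 (404 kb, with 1 combined peak), on V from 2277764 to 2615218 (337 kb, with 4) and on II from 1532770 to 1868644 (336 kb, with 2). Of the 999 windows, 35 held no outside site.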
